A study of Homo sapiens with 12 samples.

Results

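Integrin subunit and laminin chain genes were followed in A375 cells, a long-established line from a human melanoma. The members were symbols of integrin alpha subunits, integrin beta subunits and laminin alpha, beta and gamma chains in the deposited table of estimated counts. This gave 36 of 56609 symbols, made up of 18 integrin alpha, 8 integrin beta, 5 laminin alpha, 3 laminin beta and 2 laminin gamma genes. Some genes of these families are not analysed here. The choice went by gene names, with earlier results of these data known. Of the 36 members, 26 passed the filter on low counts and were tested, and 10 did not.

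The cells were wild type or carried a CRISPR/Cas9 knockout of MAPKAPK2, which encodes the kinase MK2 of the p38 stress pathway. Each genotype was given 500 nM JQ1 or the solvent DMSO for 48 h, and each of the 4 groups held 3 libraries of rRNA-depleted total RNA. JQ1 displaces BET bromodomain proteins from acetylated chromatin. The labels do not say whether the knockout cells came from 1 clone, nor whether replicates were separate cultures, so p-values measure only the spread between these samples, which may be technical. In RNA from whole cultures, fewer cells of a kind and less RNA per cell cannot be told apart.

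Integrins are receptors made of an alpha and a beta subunit that span the membrane, bind extracellular matrix outside and connect to the actin cytoskeleton inside. The alpha subunit largely sets the ligand, so that receptors are grouped as binding collagen, laminin, the RGD motif of fibronectin and vitronectin, or partners on leukocytes. Laminins are trimers of an alpha, a beta and a gamma chain and are the main adhesive proteins of basement membranes. In melanoma, integrins that bind vitronectin and laminin are known for their part in invasion through these membranes.

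The 12 libraries held 25316899 to 34594295 estimated counts. Pairs of replicates differed by a chi-square per degree of freedom of 3.35 to 7.64, where sampling noise gives about 1, except for knockout JQ1 replicate 3. This library stood apart from its group, at 26.1 and 27.5, and values without it are given where they change a call. MAPKAPK2 itself was at 87.8 to 91.97 CPM (counts per 1000000) in wild-type DMSO, 112 to 119.6 in wild-type JQ1, 11.1 to 13.1 in knockout DMSO and 12.6 to 15.7 in knockout JQ1. The neural crest factor SOX10 averaged 436 to 562 CPM in the 4 groups, while PMEL and MLANA, which mark pigmented melanocytes, averaged at most 1.18 CPM. MITF and S100B, also melanocyte markers, averaged 28.8 to 43.0 and 29.3 to 48.6 CPM. Epithelial markers were mixed. CDH1 was at 0 in all libraries and EPCAM, KRT5, KRT14 and KRT19 averaged at most 1.85 CPM. The keratins KRT8 and KRT18 averaged 15.3 to 17.5 and 125 to 139 CPM. PTPRC, which defines leukocytes, averaged 0.162 to 0.201 CPM.

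Levels of different genes were compared per length, as CPM per kb of the longest coding transcript in GENCODE release 29. In wild-type DMSO, LAMB1 stood first at 151 ± 1.07 CPM per kb (SD, n = 3 here and below). ITGB1 followed at 139 ± 2.00 and ITGB3 at 138 ± 0.803, and the libraries of these 2 overlapped. ITGA6 (83.8 ± 1.90), LAMC1 (78.6 ± 0.993), LAMA4 (56.2 ± 0.729), ITGA3 (52.03 ± 0.459) and ITGA5 (37.2 ± 0.485) came next in this order with no overlap between neighbours. ITGB5 (35.5 ± 1.26) and ITGA1 (35.3 ± 1.51) overlapped with each other. The order then ran ITGB8, LAMB2, ITGAV, ITGA4, ITGA9, ITGA2, ITGA10, LAMA5, LAMA2, ITGB4, ITGA7, LAMA3, ITGA11 and ITGAX. Overlap between neighbours in that stretch was seen for LAMB2 with ITGAV, LAMA2 with ITGB4 and LAMA3 with ITGA11. The lowest of these levels was 0.246 ± 0.0236 CPM per kb, for ITGAX.

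LAMA4, LAMB1 and LAMC1 led their classes among the laminin genes analysed. LAMA4 made up 86.8% ± 0.397 of the laminin alpha level per kb in wild-type DMSO, and LAMB1 87.5% ± 0.458 of the level of the laminin beta genes analysed. The chains LAMA4, LAMB1 and LAMC1 together form a laminin that is known from vessel walls. These 3 genes led in each of the 4 groups.

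**Figure D1:**
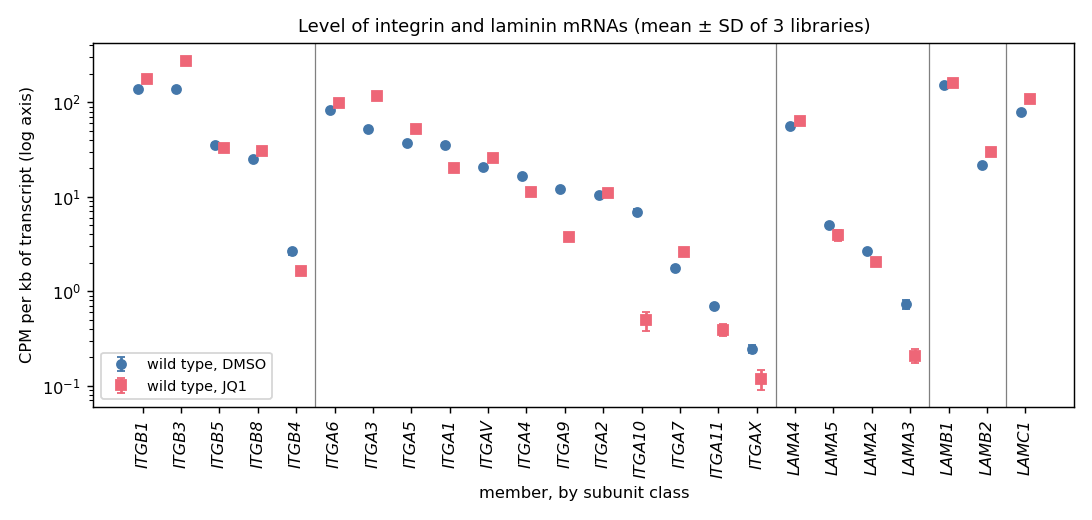
CPM per kb of transcript on a log axis for the 24 tested members at 0.1 CPM per kb or more in wild-type DMSO, by subunit class. Points are means of 3 wild-type libraries and bars are SD, circles for DMSO and squares for JQ1. LAMA1 and LAMC3 lie below the range shown. ITGB3 is at 138 with DMSO and 275 with JQ1, while ITGA10 is at 6.93 and 0.495.

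JQ1 moved most of the tested members, and in both directions. In wild-type cells 11 members rose and 9 fell, 20 of 26 in all, by edgeR's quasi-likelihood test at a Benjamini-Hochberg adjusted p under 0.05 over all genes. The same call was made for 33.1% of the 21698 genes tested, 16.9% higher and 16.2% lower. In knockout cells 9 members rose and 13 fell, 22 of 26, against 34.4% of all genes, 16.7% higher and 17.8% lower. The members were more abundant than most genes, with a median level of 107 CPM against 5.88 CPM over all genes tested. Among genes of at least 1 CPM in a group, 20 of 24 members and 42.4% of genes passed in wild-type cells, and 21 of 24 members and 44.7% of genes in knockout cells.

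The JQ1 and DMSO libraries did not overlap for 23 of 26 members in wild-type cells and 20 of 26 in knockout cells, compared with 50.4% and 42.3% of all genes. The median log2 fold change of the members was 0.04 in wild-type and -0.18 in knockout cells, beside -0.03 and -0.00 over all genes, so the members as a whole had no common direction. With libraries scaled by their totals alone, the median of all genes moved by -0.13 and -0.11. The split of members was then 7 higher and 11 lower in wild-type cells, and 8 higher and 13 lower in knockout cells. The shares of all genes called higher and lower under that scaling are not given here, so this split has no background.

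Most members that passed did so in the same direction in both genotypes. ITGA3, ITGA5, ITGA7, ITGAV, ITGB1, ITGB3, ITGB8, LAMB2 and LAMC1 rose in both, which is 9 of 26 members against 12.8% of all genes. ITGA1, ITGA4, ITGA9, ITGA10, ITGA11, ITGAX, ITGB4, LAMA2 and LAMA3 fell in both, which is also 9 of 26, against 12.4%. ITGA6, ITGB5, LAMB1 and LAMC3 passed in 1 genotype only, and LAMA4 passed in both with opposite signs, as did 0.0553% of all genes.

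**Figure D2:**
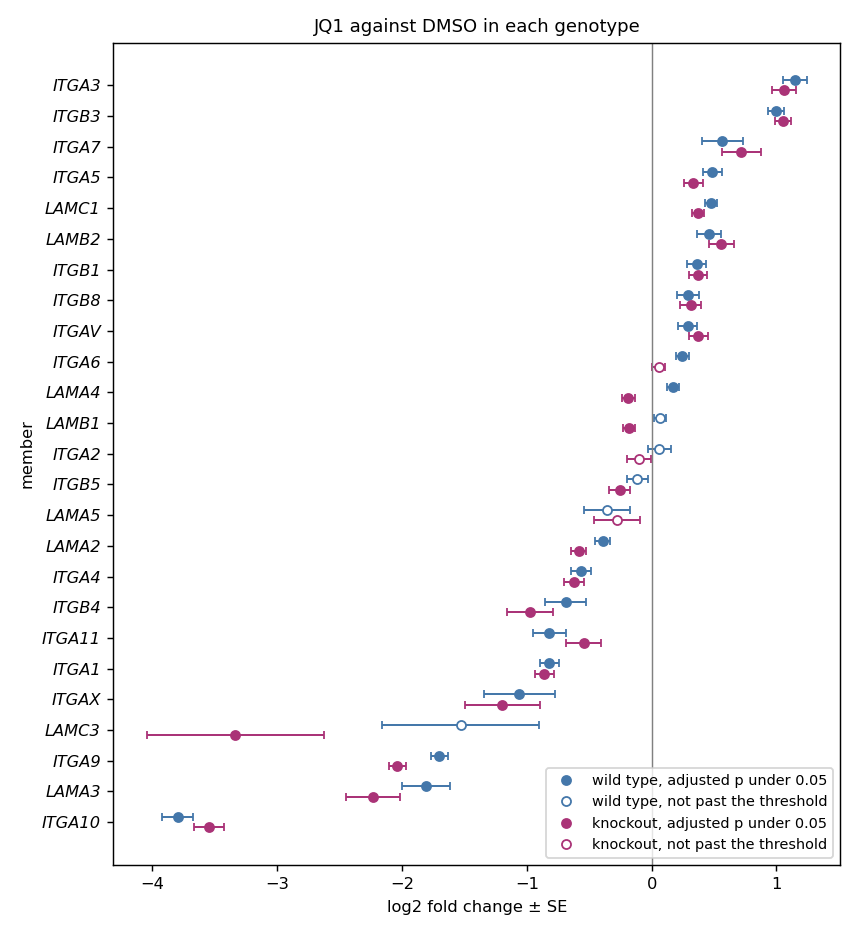
Log2 fold change of JQ1 against DMSO for 25 tested members, in wild-type cells (blue) and in knockout cells (purple), with bars of 1 SE. Filled points passed an adjusted p under 0.05. LAMA1 is not drawn because it had no count in the knockout libraries. ITGA3 and ITGB3 lie near 1 in both genotypes and ITGA10 lies below -3.

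Among the beta subunits, ITGB3 rose most. ITGB3 (chr17:47253846-47311816, plus strand of GRCh38) encodes the beta chain that pairs with ITGAV in the vitronectin receptor of melanoma cells. Its libraries stood at 551, 555 and 549 CPM in wild-type DMSO and 1094, 1146 and 1060.3 CPM in wild-type JQ1. In the knockout they stood at 566, 599.5 and 636 CPM in knockout DMSO and 1179.9, 1180.4 and 1372 CPM in knockout JQ1. All 6 JQ1 libraries lay above all 6 DMSO libraries, and knockout JQ1 replicate 3 was the highest. The log2 fold change was 1.00 (SE 0.06, adjusted p = 3.27e-08) in wild-type and 1.05 (SE 0.06, adjusted p = 1.38e-08) in knockout cells. One other gene model, AC068234.1, shares exon sequence with ITGB3 on the same strand and averaged 101 counts per library.

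ITGB3 made up 40.6% ± 0.200 of the summed beta subunit level per kb in wild-type DMSO and 53.04% ± 1.28 in wild-type JQ1. In knockout cells its share was 44.1% ± 1.91 and 57.7% ± 4.44. The summed level of all beta subunits was 340.4 ± 1.06 CPM per kb in wild-type DMSO and 519 ± 10.3 in wild-type JQ1, and 341 ± 8.51 and 539 ± 6.59 in the knockout.

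ITGB1 (chr10:32900319-33005792, minus strand) encodes the subunit shared by most matrix-binding integrins. It was at 533, 518 and 526 CPM in wild-type DMSO and 656, 672 and 699 CPM in wild-type JQ1. Knockout values were 532, 476 and 502 CPM in knockout DMSO and 703, 693 and 557 CPM in knockout JQ1. Neither genotype showed overlap between JQ1 and DMSO, though knockout JQ1 replicate 3 lay closest to the DMSO libraries. ITGB1 rose by a log2 change of 0.36 (SE 0.07, adjusted p = 0.00171) in wild-type and 0.37 (SE 0.07, adjusted p = 0.00132) in knockout cells.

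ITGB8 encodes a partner of ITGAV that binds latent transforming growth factor beta. Wild-type libraries gave 224, 217 and 216 CPM in wild-type DMSO and 254, 264 and 287 CPM in wild-type JQ1, with no overlap. Knockout libraries gave 189, 172 and 173 CPM in knockout DMSO and 239, 240.4 and 184 CPM in knockout JQ1, and knockout JQ1 replicate 3 lay among the DMSO libraries. Its log2 fold changes were 0.29 (SE 0.09, adjusted p = 0.0168) and 0.31 (SE 0.09, adjusted p = 0.0114). The knockout call was lost when the fit held the 2 knockout groups only (adjusted p = 0.0589 by edgeR). Both calls were lost with scaling by library totals alone, with adjusted p = 0.2 and 0.123 by edgeR. Each was also lost on leaving out 1 library (numbered as the replicates, with the adjusted p in parentheses), the wild-type call without library 2 (0.0599) or 3 (0.0599) of wild-type DMSO or library 3 (0.0706) of wild-type JQ1, and the knockout call without library 2 (0.0566) of knockout DMSO or library 2 (0.0543) of knockout JQ1.

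ITGB5, another partner of ITGAV, was at 150.1, 161 and 155 CPM in wild-type DMSO and 149, 151 and 131 CPM in wild-type JQ1. Knockout values ran at 144, 160.4 and 162 CPM in knockout DMSO and 124, 118 and 148 CPM in knockout JQ1. The groups overlapped in both genotypes. It fell in the knockout with a log2 change of -0.25 (SE 0.08, adjusted p = 0.027), while the wild-type value was -0.11 (SE 0.08, adjusted p = 0.321). The knockout call was lost when the fit held the 2 knockout groups only, with adjusted p = 0.0595, and without library 2 (0.0712) or 3 (0.0891) of knockout DMSO or library 1 (0.092) or 2 (0.123) of knockout JQ1.

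ITGB4 (chr17:75721328-75757818, plus strand) encodes the partner of ITGA6 in hemidesmosomes, where epithelial cells anchor to laminin. Its level was 14.7, 16.9 and 15.3 CPM in wild-type DMSO and 10.1, 10.04 and 8.95 CPM in wild-type JQ1. The knockout had 6.88, 10.05 and 8.06 CPM in knockout DMSO and 3.00, 4.05 and 5.53 CPM in knockout JQ1. JQ1 libraries were below DMSO libraries in both genotypes with no overlap. ITGB4 fell, with log2 fold changes of -0.69 (SE 0.16, adjusted p = 0.00474) and -0.98 (SE 0.18, adjusted p = 0.000738).

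**Figure D3:**
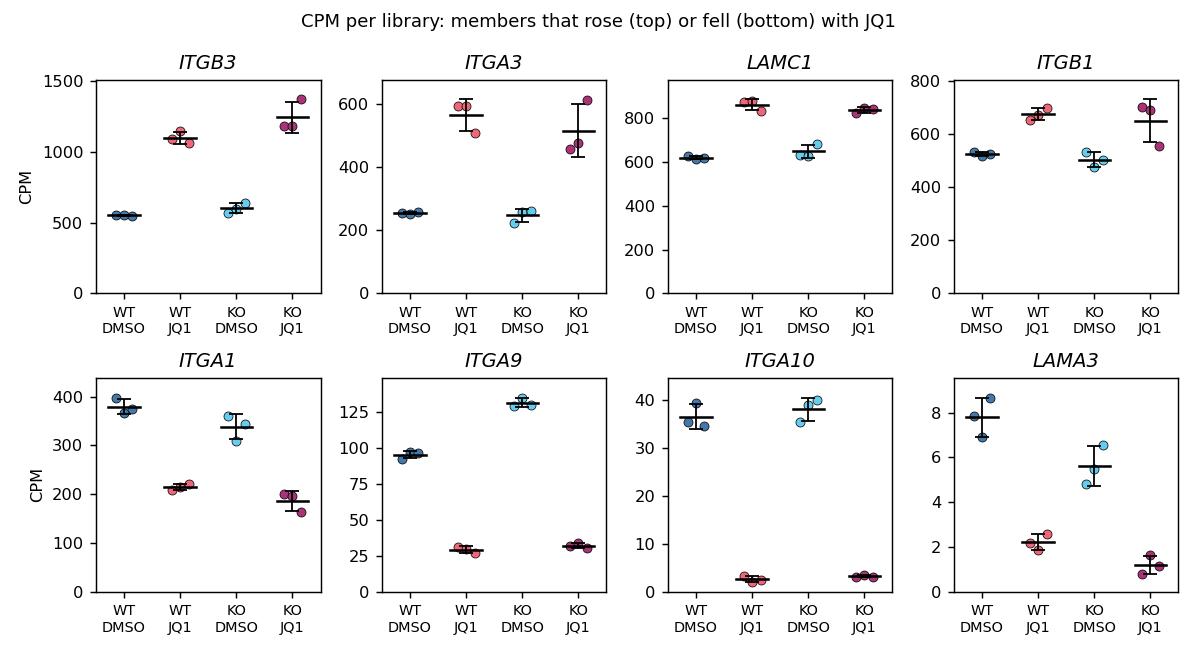
CPM in each library, by genotype and treatment, for 4 members that rose with JQ1 (top row) and 4 that fell (bottom row). Points are libraries, lines are means and bars are SD (n = 3), and each panel has its own axis from 0. JQ1 and DMSO libraries do not overlap within a genotype in any panel.

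Most collagen-binding alpha subunits fell. JQ1 lowered ITGA1, ITGA10 and ITGA11, 3 of the 4 genes of this class, in both genotypes, and the fourth, ITGA2, passed in neither. ITGA10 (chr1:145891208-145910189, minus strand), a receptor subunit best known from cartilage, had the largest fitted fall of the 26 tested members in both genotypes. It was at 35.4, 39.5 and 34.7 CPM in wild-type DMSO and 3.23, 2.08 and 2.51 CPM in wild-type JQ1. Knockout cells had 35.4, 38.9 and 40.1 CPM in knockout DMSO and 3.12, 3.53 and 3.16 CPM in knockout JQ1. Every JQ1 library was below every DMSO library by a wide margin. The log2 fold changes were -3.80 (SE 0.12, adjusted p = 5.17e-11) and -3.55 (SE 0.12, adjusted p = 6.44e-11).

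ITGA1 (chr5:52787896-52959210, plus strand) binds collagen IV as well as fibrillar collagen. Its wild-type values were 398, 367 and 374 CPM in wild-type DMSO and 208, 215 and 221 CPM in wild-type JQ1. Its knockout values were 359.8, 309.6 and 344 CPM in knockout DMSO and 200.01, 195 and 163 CPM in knockout JQ1. The JQ1 and DMSO groups did not overlap in either genotype, and the log2 fold changes were -0.82 (SE 0.08, adjusted p = 1.55e-06) and -0.86 (SE 0.08, adjusted p = 8.31e-07). PELO lies within ITGA1 on the same strand and shares exon sequence with it, at an average of 1539 counts per library, so reads may be divided between them.

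ITGA11, known from fibroblasts, was low, at 7.14, 7.50 and 6.62 CPM in wild-type DMSO and 3.36, 4.48 and 4.20 CPM in wild-type JQ1. Knockout libraries held 4.74, 5.73 and 4.45 CPM in knockout DMSO and 3.54, 3.36 and 3.32 CPM in knockout JQ1. It fell without overlap in both genotypes, by -0.82 (SE 0.13, adjusted p = 0.000237) and -0.55 (SE 0.14, adjusted p = 0.0068) on the log2 scale. The summed level of 6 fibroblast markers moved the same way, from 22.5 to 23.2 CPM in wild-type DMSO to 14.3 to 16.9 CPM in wild-type JQ1, and from 17.4 to 18.8 to 9.80 to 12.1 CPM in the knockout. PDGFRA, of the same list, went the other way, averaging 6.55 and 10.2 CPM in wild-type and 4.62 and 7.09 CPM in knockout cells. The part of these markers in the result was not tested. ITGA2, which binds collagen and laminin, was at 84.8, 82.01 and 82.3 CPM in wild-type DMSO and 83.00, 87.95 and 89.05 CPM in wild-type JQ1, with log2 fold changes of 0.06 (SE 0.09, adjusted p = 0.666) and -0.10 (SE 0.10, adjusted p = 0.466). The knockout had 67.2, 57.4 and 67.8 CPM in knockout DMSO and 62.9, 67.4 and 49.3 CPM in knockout JQ1.

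The laminin-binding alpha subunits went the other way. All 3 rose in wild-type cells and ITGA3 and ITGA7 rose in the knockout. ITGA3 (chr17:50055968-50090481, plus strand), which pairs with ITGB1 and binds the laminins of epithelia, was at 253, 253 and 257 CPM in wild-type DMSO and 593, 593 and 507 CPM in wild-type JQ1. In knockout cells it was at 224, 257 and 259.5 CPM in knockout DMSO and 458, 475 and 611 CPM in knockout JQ1. No JQ1 library overlapped with a DMSO library. The rises were 1.15 (SE 0.10, adjusted p = 6.15e-07) and 1.06 (SE 0.10, adjusted p = 1.13e-06) on the log2 scale.

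ITGA6 (chr2:172427354-172506282, plus strand) pairs with ITGB1 or ITGB4 and was the most abundant alpha subunit per kb in wild-type DMSO. It was at 482, 461 and 468 CPM in wild-type DMSO and 545, 560.0 and 567 CPM in wild-type JQ1. Knockout libraries held 553, 506 and 535 CPM in knockout DMSO and 564, 574 and 519 CPM in knockout JQ1. The wild-type groups did not overlap and the knockout groups did. Its log2 fold change was 0.24 (SE 0.05, adjusted p = 0.00203) in wild-type and 0.06 (SE 0.05, adjusted p = 0.441) in knockout cells, and the difference between these responses was -0.19 (SE 0.07, adjusted p = 0.507). The wild-type call was lost with scaling by library totals alone (adjusted p = 0.138).

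ITGA7, the laminin receptor subunit of muscle, was low, at 7.53, 7.46 and 6.89 CPM in wild-type DMSO and 11.1, 11.4 and 9.93 CPM in wild-type JQ1. In the knockout it was at 7.59, 10.3 and 9.89 CPM in knockout DMSO and 14.1, 11.9 and 19.5 CPM in knockout JQ1, with its highest value in replicate 3 of JQ1. The groups did not overlap. It rose by 0.57 (SE 0.16, adjusted p = 0.0145) and 0.72 (SE 0.16, adjusted p = 0.00257). The wild-type call was lost without library 2 (0.0505) of wild-type JQ1. Without knockout JQ1 replicate 3 the knockout value was 0.49 (SE 0.13, adjusted p = 0.0077). Exons of METTL7B and BLOC1S1 overlap with ITGA7 on the opposite strand, at averages of 291 and 1498 counts, and whether the counting used the strand is not given in the sources used here.

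Both tested alpha subunits that bind the RGD motif rose. ITGA5 (chr12:54395261-54419460, minus strand), which pairs with ITGB1 as the main fibronectin receptor, was at 164, 164 and 168 CPM in wild-type DMSO and 241, 243 and 212 CPM in wild-type JQ1. Its knockout libraries held 122, 129.5 and 136 CPM in knockout DMSO and 149.8, 158 and 180.4 CPM in knockout JQ1. JQ1 libraries were higher in both genotypes with no overlap. The log2 fold changes were 0.49 (SE 0.07, adjusted p = 0.000131) and 0.33 (SE 0.07, adjusted p = 0.00258).

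ITGAV (chr2:186590065-186680901, plus strand), which pairs with ITGB1, ITGB3, ITGB5 and ITGB8 among others, was at 147, 143 and 150.2 CPM in wild-type DMSO and 175, 178 and 185 CPM in wild-type JQ1. The knockout libraries gave 143, 129 and 132 CPM in knockout DMSO and 189, 185 and 151 CPM in knockout JQ1. No overlap was seen, with knockout JQ1 replicate 3 the nearest to DMSO. It rose by 0.29 (SE 0.07, adjusted p = 0.00779) and 0.37 (SE 0.08, adjusted p = 0.00125), less than its partner ITGB3 in either genotype. The difference between these 2 genes was not tested. The wild-type call was lost with scaling by library totals alone (adjusted p = 0.143). The other 2 genes of the class, ITGA8 and ITGA2B, were below the filter.

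ITGA4 and ITGA9 form a class of their own, which binds fibronectin variants, tenascin and cell-surface ligands. Both fell in both genotypes. ITGA9 (chr3:37452115-37823514, plus strand) was at 92.5, 97.1 and 96.4 CPM in wild-type DMSO and 31.2, 29.9 and 26.8 CPM in wild-type JQ1. In the knockout it was at 129, 135 and 129.7 CPM in knockout DMSO and 31.7, 34.00 and 30.4 CPM in knockout JQ1. The JQ1 libraries of both genotypes lay between 26.8 and 34.0 CPM, far below either DMSO group. The log2 fold changes were -1.70 (SE 0.07, adjusted p = 3.27e-10) and -2.04 (SE 0.07, adjusted p = 3.87e-11).

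ITGA4 (chr2:181457202-181536187, plus strand), the subunit of the receptor for VCAM1, was at 70.6, 68.2 and 68.99 CPM in wild-type DMSO and 44.9, 48.1 and 47.4 CPM in wild-type JQ1. Knockout libraries gave 88.5, 76.7 and 71.5 CPM in knockout DMSO and 53.4, 54.4 and 46.5 CPM in knockout JQ1. JQ1 and DMSO groups did not overlap in either genotype. It fell, at -0.57 (SE 0.08, adjusted p = 7.43e-05) and -0.62 (SE 0.08, adjusted p = 2.88e-05) on the log2 scale.

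Summed per kb, the make-up of the alpha subunit message moved with the drug. Laminin-binding subunits were 49.5% ± 0.0899 of the alpha level in wild-type DMSO and 63.5% ± 0.490 in wild-type JQ1, and 52.9% ± 0.734 and 66.6% ± 2.16 in the knockout. Collagen-binding subunits were 19.2% ± 0.378 and 9.33% ± 0.564 in wild-type, and 16.96% ± 0.710 and 8.33% ± 1.21 in knockout cells. ITGA4 and ITGA9 together were 10.3% ± 0.128 and 4.36% ± 0.116, and 12.7% ± 0.784 and 5.26% ± 0.532. RGD-binding subunits were 20.9% ± 0.353 and 22.7% ± 0.189 in wild-type, and 17.3% ± 0.255 and 19.8% ± 0.407 in knockout cells, higher with JQ1 without overlap in both. Shares of these classes sum to the whole, so a change in one moves the others.

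Of the leukocyte alpha subunits, only ITGAX passed the filter, at 1.04, 1.17 and 1.26 CPM in wild-type DMSO and 0.439, 0.704 and 0.532 CPM in wild-type JQ1. Knockout libraries gave 0.865, 1.44 and 1.09 CPM in knockout DMSO and 0.532, 0.648 and 0.316 CPM in knockout JQ1. It fell, at -1.06 (SE 0.29, adjusted p = 0.0103) and -1.20 (SE 0.30, adjusted p = 0.00618). The wild-type call was lost without library 1 (0.053) of wild-type JQ1. The summed level of 7 leukocyte markers was 3.82 to 3.84 CPM in wild-type DMSO and 1.85 to 2.13 CPM in wild-type JQ1, and 3.29 to 3.91 and 2.03 to 2.43 CPM in the knockout, mostly from LYZ. PTPRC was at or near 0, with at most 8 counts in a library.

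The laminin alpha chains split. LAMA3 (chr18:23689443-23956222, plus strand), a chain of the epithelial laminin that hemidesmosomes bind, was at 7.86, 6.90 and 8.65 CPM in wild-type DMSO and 2.20, 1.85 and 2.60 CPM in wild-type JQ1. Knockout cells held 4.80, 5.49 and 6.56 CPM in knockout DMSO and 0.799, 1.62 and 1.17 CPM in knockout JQ1. JQ1 and DMSO did not overlap, and the log2 fold changes were -1.81 (SE 0.19, adjusted p = 4.99e-06) and -2.23 (SE 0.21, adjusted p = 1.66e-06). The 7 epithelial markers summed to 131 to 154 CPM in wild-type DMSO and 142 to 156 CPM in wild-type JQ1, and 155 to 164 and 140.3 to 154 CPM in the knockout, where they did not overlap. The sum was mostly KRT18, and CDH1 was at 0. KRT14, a keratin of basal epithelium, averaged 1.85 CPM in wild-type DMSO and 0.744 in wild-type JQ1, and 1.26 and 0.207 CPM in the knockout. Their part in the change of LAMA3 was not tested.

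LAMA2 (chr6:128883141-129516569, plus strand), the alpha chain of muscle and nerve laminin, was at 25.5, 26.3 and 26.6 CPM in wild-type DMSO and 18.9, 20.5 and 20.3 CPM in wild-type JQ1. The knockout libraries were at 59.5, 55.5 and 59.8 CPM in knockout DMSO and 37.6, 39.8 and 39.1 CPM in knockout JQ1. JQ1 was below DMSO in both genotypes with no overlap, at -0.39 (SE 0.06, adjusted p = 0.000242) and -0.58 (SE 0.06, adjusted p = 3.68e-06). Even with JQ1, the knockout libraries lay above all wild-type libraries.

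LAMA4 (chr6:112108760-112254939, minus strand), the main alpha chain here, moved little and in opposite directions. It was at 373, 365 and 366 CPM in wild-type DMSO and 401, 431 and 411 CPM in wild-type JQ1. Knockout libraries stood at 434, 406 and 423 CPM in knockout DMSO and 378, 381 and 351 CPM in knockout JQ1. The log2 fold change was 0.17 (SE 0.05, adjusted p = 0.0169) in wild-type and -0.19 (SE 0.05, adjusted p = 0.01) in knockout cells. The groups did not overlap in either genotype. The wild-type call was lost with library totals alone (adjusted p = 0.583) and the knockout call with the authors' own scaling factors (log2 fold change -0.08, adjusted p = 0.31). A fit of the 2 knockout groups only also ended the knockout call (adjusted p = 0.0605 by edgeR). The wild-type call was also lost without library 2 (0.0661) or 3 (0.0609) of wild-type DMSO or library 2 (0.0821) of wild-type JQ1, and the knockout call without library 1 (0.057) of knockout DMSO.

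LAMA5, the alpha chain of adult basement membranes, passed in neither genotype. It was at 55.6, 60.4 and 57.02 CPM in wild-type DMSO and 50.9, 44.4 and 39.7 CPM in wild-type JQ1, with a log2 change of -0.36 (SE 0.19, adjusted p = 0.162). Knockout libraries held 38.8, 62.04 and 56.8 CPM in knockout DMSO and 34.5, 36.2 and 58.9 CPM in knockout JQ1, with -0.28 (SE 0.19, adjusted p = 0.286). Knockout JQ1 replicate 3 was far above its replicates, and without it the knockout change was -0.57 (SE 0.15, adjusted p = 0.00741) and the wild-type change -0.36 (adjusted p = 0.038). With no filter on low counts both passed, at adjusted p = 0.0248 in the knockout and 0.00401 in wild-type cells by edgeR. ADRM1, at an average of 4078 counts, overlaps with LAMA5 on the opposite strand.

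Among the beta and gamma chains, LAMC1 and LAMB2 rose. LAMC1 (chr1:183023460-183145592, plus strand), the gamma chain of most laminins, was at 629, 614 and 617 CPM in wild-type DMSO and 873, 879 and 834 CPM in wild-type JQ1. In knockout cells it was at 634, 627 and 682 CPM in knockout DMSO and 823, 846 and 843 CPM in knockout JQ1. The groups did not overlap, and the rises were 0.48 (SE 0.05, adjusted p = 2.23e-06) and 0.37 (SE 0.05, adjusted p = 2.06e-05). LAMB2 (chr3:49121114-49133118, minus strand), the beta chain of synapses and kidney filters, was at 119.8, 127 and 120.0 CPM in wild-type DMSO and 173, 178 and 156 CPM in wild-type JQ1, a change of 0.46 (SE 0.10, adjusted p = 0.00194). Its knockout values were 104, 114 and 116 CPM in knockout DMSO and 144, 151 and 197 CPM in knockout JQ1, a change of 0.56 (SE 0.10, adjusted p = 0.0004).

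LAMB1 (chr7:107923799-108003255, minus strand), the beta chain of most laminins and the most abundant member per kb in wild-type DMSO, was at 873, 866 and 879 CPM in wild-type DMSO and 893, 963 and 886 CPM in wild-type JQ1. Its knockout libraries held 991, 984 and 1030.1 CPM in knockout DMSO and 855, 891 and 907 CPM in knockout JQ1. It fell in the knockout by -0.18 (SE 0.05, adjusted p = 0.0076) and gave 0.07 (SE 0.05, adjusted p = 0.304) in wild-type cells. DLD overlaps with LAMB1 on the opposite strand, at an average of 2028 counts.

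LAMC3, a gamma chain of nerve and skin, had few counts, 9, 6 and 17 in wild-type DMSO, 3, 4 and 3 in wild-type JQ1, 11, 16 and 19 in knockout DMSO and 0, 0 and 4 in knockout JQ1. Of the 3 knockout JQ1 libraries only replicate 3 held any count. It passed in the knockout only (adjusted p = 0.00196), and 0.0771 was the adjusted p in wild-type cells. Without knockout JQ1 replicate 3 the remaining knockout JQ1 libraries are at 0, and LAMC3 passed in wild-type cells too (adjusted p = 0.037), with 0.000312 in the knockout.

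Promoter sequences show what the genes that moved together have in their upstream DNA. Of the members, 25 matched RefSeq promoter windows (GRCh38.p14), 30 windows in all, and the 250 bases before each start were searched on both strands. ITGA3, ITGA7 and ITGB3 among the genes that rose, and ITGA9, ITGAX and ITGB4 among those that fell, had no entry. The GC box GGGCGG, a site of SP1-type factors, was found in 5 of 8 windows of genes that rose in both genotypes and in 1 of 6 windows of genes that fell in both. Over all 35116 windows the share was 42.6%. The AP-1 motif TGANTCA was in 0 of 8 and 1 of 6 windows (LAMA3, with 2 matches), against 6.57% of all. The E-box CACGTG and the cyclic AMP element TGACGTCA were in none of these windows, against 6.34% and 1.65% of all. TATAAA was in 1 of 8 windows and 0 of 6, against 10.7%. Median GC content was 70.4%, 61.2% and 58% in the windows of rising, falling and all genes. A match is only a match of letters, and these windows are few.

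LAMC1 and LAMA2 are shown as a gene that rose and a gene that fell, ITGA10 because it fell most, and ITGA11 as a falling gene of high GC content. Bases run 5′ to 3′ on the gene's strand, stop where an annotated exon begins, and carry GC boxes of either strand in capitals. LAMC1 has 3 of them and the other 3 sequences have none.
LAMC1 (chr1:183023170-183023419, plus strand): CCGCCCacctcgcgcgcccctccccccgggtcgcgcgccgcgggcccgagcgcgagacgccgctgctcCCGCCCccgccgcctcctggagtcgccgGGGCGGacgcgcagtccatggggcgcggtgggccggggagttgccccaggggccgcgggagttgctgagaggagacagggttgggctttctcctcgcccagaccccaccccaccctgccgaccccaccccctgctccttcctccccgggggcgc
LAMA2 (chr6:128882888-128883137, plus strand): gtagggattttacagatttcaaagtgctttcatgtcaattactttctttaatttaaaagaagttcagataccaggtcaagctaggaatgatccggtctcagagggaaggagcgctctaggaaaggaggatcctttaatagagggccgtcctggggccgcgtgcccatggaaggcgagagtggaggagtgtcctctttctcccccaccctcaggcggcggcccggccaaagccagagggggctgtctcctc
ITGA10 (chr1:145910190-145910300, minus strand): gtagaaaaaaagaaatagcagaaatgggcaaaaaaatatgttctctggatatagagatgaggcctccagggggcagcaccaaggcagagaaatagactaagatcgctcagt
ITGA11 (chr15:68432164-68432413, minus strand): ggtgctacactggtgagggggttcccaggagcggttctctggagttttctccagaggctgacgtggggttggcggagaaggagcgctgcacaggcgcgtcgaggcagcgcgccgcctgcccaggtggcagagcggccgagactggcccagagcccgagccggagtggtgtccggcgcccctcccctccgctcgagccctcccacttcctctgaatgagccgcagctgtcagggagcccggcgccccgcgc

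Fewer members differed between knockout and wild-type cells than between JQ1 and DMSO. Whether loss of MAPKAPK2 itself made these differences was not tested. In DMSO, LAMA2, ITGA9, LAMA4 and LAMB1 were higher in knockout than in wild-type cells and ITGB4, ITGA11, ITGA2, ITGA5, ITGB8 and LAMA1 were lower. That is 10 of 26 members, against 7.91% of all genes tested (3.47% higher, 4.44% lower). In JQ1, LAMA2 was higher and ITGA2, ITGA5, ITGB4, LAMA1 and LAMA3 were lower, 6 of 26 against 8.57% (3.01% higher, 5.56% lower). Among genes of at least 1 CPM in a group, 9 of 24 members and 11.0% of genes passed in DMSO, and 5 of 24 members and 11.9% of genes in JQ1. With library totals alone the DMSO split was 2 higher and 6 lower, and the shares of all genes under that scaling are not given here. Leaving out 1 library gave 4 to 11 calls in DMSO, 5 of them without wild-type DMSO replicate 1 or 2, 6 without replicate 3, 5 without knockout DMSO replicate 1 and 4 without replicate 3. In JQ1 it gave 4 to 8. Knockout and wild-type libraries did not overlap for 16 of 26 members in DMSO and 11 of 26 in JQ1, against 29.6% and 23.1% of all genes. Median log2 fold changes of the members were -0.04 and -0.09, beside -0.00 and -0.00 over all genes. The DMSO comparison shares its wild-type libraries with the JQ1 comparison above.

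LAMA2 was the member that rose most in the knockout. Its mean was 26.2 ± 0.581 CPM in wild-type and 58.3 ± 2.43 CPM in knockout DMSO (SD, n = 3), and 19.9 ± 0.851 and 38.8 ± 1.12 CPM in JQ1. The log2 fold change was 1.15 (SE 0.06, adjusted p = 2.60e-08) in DMSO and 0.96 (SE 0.06, adjusted p = 1.92e-07) in JQ1. It passed under every alternative that was run. Per kb LAMA2 was 2.70 ± 0.0600 CPM in wild-type and 6.01 ± 0.251 CPM in knockout DMSO, still well below LAMA4 at 64.3 ± 2.19.

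ITGB4 was lower in the knockout in both treatments. Its means were 15.6 ± 1.15 and 8.33 ± 1.60 CPM in DMSO and 9.70 ± 0.647 and 4.20 ± 1.27 CPM in JQ1. The log2 fold changes were -0.91 (SE 0.17, adjusted p = 0.0028) and -1.19 (SE 0.18, adjusted p = 0.000623), with no overlap between genotypes. LAMA3 gave -0.48 (SE 0.18, adjusted p = 0.13) in DMSO and fell, at -0.90 (SE 0.23, adjusted p = 0.0239) in JQ1. That call was lost when the fit held the 2 JQ1 groups only (adjusted p = 0.0986), and without library 1 (0.0601) or 3 (0.104) of wild-type JQ1 or library 1 (0.0918) of knockout JQ1.

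ITGA5 and ITGA2 were lower in the knockout in both treatments, with no overlap. ITGA5 averaged 165 ± 2.15 and 129 ± 7.25 CPM in DMSO, a log2 change of -0.36 (SE 0.07, adjusted p = 0.00677). In JQ1 it averaged 232 ± 17.6 and 163 ± 15.8 CPM, a change of -0.51 (SE 0.07, adjusted p = 0.000413). ITGA2 averaged 83.01 ± 1.51 and 64.1 ± 5.83 CPM in DMSO, a change of -0.37 (SE 0.10, adjusted p = 0.0253). In JQ1 it averaged 86.7 ± 3.22 and 59.9 ± 9.43 CPM, with -0.54 (SE 0.10, adjusted p = 0.00234). The DMSO call of ITGA2 was lost when any one of the 6 DMSO libraries was left out, with adjusted p from 0.0588 to 0.163.

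ITGA9 was higher in knockout DMSO, at 131 ± 3.15 CPM against 95.3 ± 2.47, a log2 change of 0.46 (SE 0.06, adjusted p = 0.000278). In JQ1 the change was 0.13 (SE 0.07, adjusted p = 0.32) and the groups overlapped. ITGA11 was lower in DMSO, at -0.51 (SE 0.13, adjusted p = 0.0249) and gave -0.23 (SE 0.14, adjusted p = 0.392) in JQ1. The DMSO call was lost without library 1 (0.0851) or 2 (0.109) of wild-type DMSO or library 1 (0.0923) or 3 (0.123) of knockout DMSO. ITGB8 gave -0.28 (SE 0.09, adjusted p = 0.0601) in JQ1 and was lower in DMSO, at -0.30 (SE 0.09, adjusted p = 0.0474). The DMSO call was lost with DESeq2's size factors (adjusted p = 0.0714) and with the authors' own scaling factors (0.108). It was also lost with a replicate block (0.0705) and among genes of at least 1 CPM in a group (0.0507). Leaving out 1 library ended that call in 9 of 12 cases, with adjusted p from 0.051 to 0.199. LAMA4 and LAMB1 were higher in DMSO by 0.19 (SE 0.05, adjusted p = 0.0272) and 0.20 (SE 0.05, adjusted p = 0.015). Both calls were lost without a filter on low counts, at adjusted p = 0.0821 and 0.0528 by edgeR. Library totals alone also ended both (0.139 and 0.0593), and a replicate block ended the LAMA4 call (0.0525). The LAMA4 call was lost without library 1 (0.0706), 2 (0.107) or 3 (0.0938) of wild-type DMSO or library 1 (0.103) or 3 (0.0939) of knockout DMSO. The LAMB1 call was lost without library 2 (0.0527) of wild-type DMSO or library 3 (0.0608) of knockout DMSO.

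Without knockout JQ1 replicate 3, which stood apart, 3 further members passed between genotypes. ITGA3 was lower in the knockout in JQ1, at -0.28 (SE 0.07, adjusted p = 0.0204), beside -0.13 (SE 0.10, adjusted p = 0.494) with all libraries. ITGB5 was lower too, at -0.24 (SE 0.07, adjusted p = 0.0337), beside -0.14 (SE 0.08, adjusted p = 0.394). ITGA6 was higher in DMSO, at 0.17 (SE 0.04, adjusted p = 0.0102), beside 0.17 (SE 0.05, adjusted p = 0.0534). ITGA6 also passed by edgeR with DESeq2's size factors (0.0426) and without knockout DMSO replicate 2 (0.0389), and by DESeq2 (0.00789). In JQ1, DESeq2 also called ITGA7 higher in the knockout (0.0425) and ITGB8 (0.0383) and LAMA4 (0.0309) lower. Other settings gave further gains.

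LAMA1, the alpha chain of early embryonic basement membranes, was at the edge of detection. It had 36, 0 and 50 counts in wild-type DMSO, 31, 27 and 20 in wild-type JQ1 and 0 in all 6 knockout libraries. Set against a floor of 3 counts per library, the wild-type mean was at least 8.04-fold higher in DMSO and at least 7.76-fold higher in JQ1. The adjusted p was 0.0246 in DMSO and 0.027 in JQ1. One of the 3 wild-type DMSO libraries was itself at 0, and the DMSO call was lost without library 1 (0.07) or 3 (0.0767) of wild-type DMSO or library 1 (0.0623), 2 (0.0687) or 3 (0.0752) of knockout DMSO. The JQ1 call was lost without library 1 (0.0682) or 2 (0.074) of wild-type JQ1 or library 1 (0.0618) or 2 (0.0603) of knockout JQ1.

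**Figure D4:**
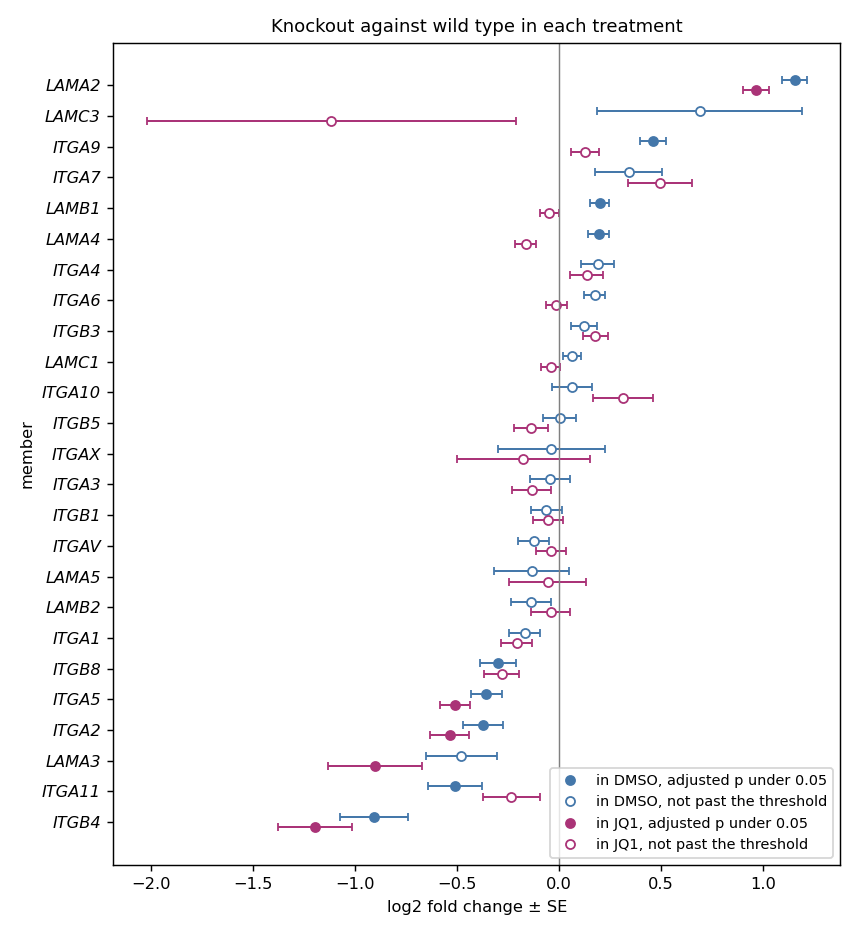
Log2 fold change of knockout against wild type for 25 tested members, in DMSO (blue) and in JQ1 (purple), with bars of 1 SE. Filled points passed an adjusted p under 0.05, and LAMA1 is not drawn because its fitted value has no count in the knockout. LAMA2 lies near 1 and ITGB4 near -1 in both treatments.

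MAPKAPK2 lies on chromosome 1. The members on that chromosome, ITGA10 and LAMC1, lie on the centromere side of it, and neither passed between genotypes. Their log2 fold changes in DMSO were 0.06 and 0.06.

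The difference between the JQ1 responses of the genotypes was tested directly, and 0 of 26 members passed by edgeR, against 0.134% of all genes (0.0323% higher, 0.101% lower). At an unadjusted p under 0.05 there were 5, ITGA6, ITGA9, LAMA2, LAMA4 and LAMB1. DESeq2 called 3, which were ITGA9, LAMA4 and LAMB1. No share of all genes is given beside these counts, so they say nothing about the members as a set. LAMA4 had the smallest adjusted p by edgeR, with a difference of -0.36 (SE 0.07, adjusted p = 0.0868). It became a call without knockout JQ1 replicate 3 (-0.32, SE 0.06, adjusted p = 0.0365). LAMB1 gave -0.25 (SE 0.07, adjusted p = 0.249) and ITGA9 -0.34 (SE 0.09, adjusted p = 0.262). For LAMA4 all 3 wild-type JQ1 libraries lay above wild-type DMSO and all 3 knockout JQ1 libraries below knockout DMSO, and the same held for LAMB1. How many of all genes show this pattern was not computed. JQ1 and DMSO groups did not overlap, in either direction, for 50.4% of all genes in wild-type and 42.3% in knockout cells.

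**Figure D5:**
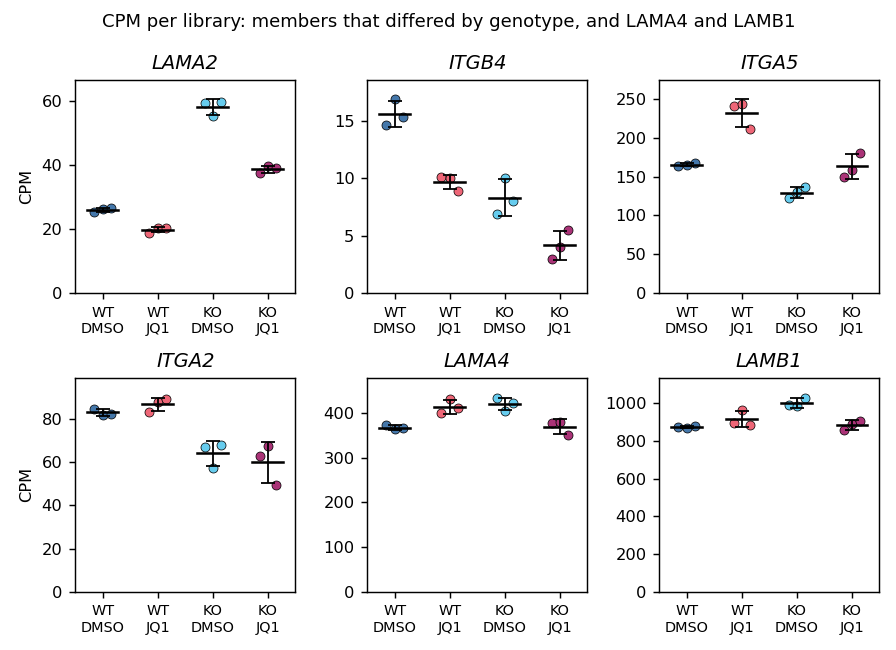
CPM in each library, by genotype and treatment, for 4 members that differed between genotypes (LAMA2, ITGB4, ITGA5, ITGA2) and for LAMA4 and LAMB1. Points are libraries, lines are means and bars are SD (n = 3), and each panel has its own axis from 0. LAMA2 is at 55.5 to 59.8 CPM in knockout DMSO and 25.5 to 26.6 CPM in wild-type DMSO.

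Mean transcript length per gene may be read from the factor between the 2 deposited tables, since the submitters' notes name a transcript-level tool. None of the 24 members with enough counts differed in it by limma in any of 5 contrasts. The background was 0.275% of 16730 genes for JQ1 in wild-type and 0.203% in knockout cells, 0.0239% and 0.0179% for the knockout in DMSO and in JQ1, and 0% for the difference. Of the 120 member tests, 19 had an unadjusted p under 0.05, and the share of all genes at that level is not given here. Most were for JQ1 in the knockout, many of them small, such as ITGA2 at -0.509% and ITGA5 at -0.433%. Without knockout JQ1 replicate 1 there were 14 calls, all for JQ1 in the knockout and all shorter with JQ1, and without replicate 3 there was 1. ITGA9 had a relative factor of 1.06 to 1.11 in the 6 DMSO libraries and 0.838 to 0.987 in the 6 JQ1 libraries. Its JQ1 difference was -14.3% in wild-type (adjusted p = 0.22) and -15.3% in knockout cells (adjusted p = 0.194) by limma. ITGA9 was the largest of the 14 calls, at -16.8% (adjusted p = 0.0361), and the single call without replicate 3, at -14.3% (adjusted p = 0.0346) in wild-type cells. Of the 14, LAMA4 was at -8.58% and ITGA6 at -2.05%, and the rest were at -0.553% to -0.767%. These small calls include ITGA1 and ITGA2, which have 1 annotated coding transcript each. In knockout JQ1 replicate 3 the relative factor of both was 0.991.

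The 10 members below the filter were ITGA2B, ITGA8, ITGAD, ITGAE, ITGAL, ITGAM, ITGB2, ITGB6, ITGB7 and LAMB4. ITGB2, the common beta subunit of leukocyte integrins, had 8, 12 and 7 counts in wild-type DMSO, 0, 1 and 0 in wild-type JQ1, 9, 7 and 11 in knockout DMSO and 0, 0 and 0 in knockout JQ1. Its knockout DMSO mean was at least 2.77-fold higher than knockout JQ1 at the floor of 3 counts per library. Tested with no filter, it passed for JQ1 in both genotypes, with adjusted p = 0.000287 and 2.32e-05 by edgeR. DESeq2 also called it in both, with adjusted p = 0.00534 and 0.000518. On leaving out 1 library it met edgeR's filter and passed in both in most cases. Without knockout JQ1 replicate 3 the values were 0.0017 and 0.00322. ITGB7, the partner of ITGA4 on lymphocytes, had 4, 10 and 16 counts in wild-type DMSO and 0, 3 and 0 in knockout DMSO, and its exons overlap with ZNF740 on the other strand. With no filter, ITGB7 passed for the knockout in DMSO (adjusted p = 0.0257 by edgeR). At these counts no difference can be read for the other 8.

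Partners of the members were taken from 5 lists. For comparison with the counts of all 5 lists, the shares over all genes tested are given here. With JQ1 they were 16.9% higher and 16.2% lower in wild-type cells, and 16.7% and 17.8% in the knockout. Between genotypes they were 3.47% higher and 4.44% lower in DMSO, and 3.01% and 5.56% in JQ1. Of 13 tested partner genes of basement membranes, 3 rose and 7 fell with JQ1 in wild-type cells, 3 rose and 3 fell in the knockout. Their median log2 fold changes were -0.58 and -0.19. COL15A1, a collagen of the outer basement membrane, fell, at -2.70 (SE 0.25, adjusted p = 1.50e-06) in wild-type cells, and NTN4, a netrin that binds laminin gamma chains, at -1.06 (SE 0.10, adjusted p = 2.43e-06). SPARC, a collagen-binding matrix protein, rose by 0.40 (SE 0.05, adjusted p = 4.16e-05). Between genotypes in DMSO, 1 was higher and 3 lower, and in JQ1 2 were higher and 3 lower.

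NID1, NID2 and PXDN differed by genotype among them. NID1, which links laminin to collagen IV, averaged 203 ± 15.1 CPM in wild-type and 101 ± 9.84 CPM in knockout DMSO, a change of -1.003 (SE 0.09, adjusted p = 3.16e-06). It lies at chr1:235975830-236065162, on the telomere side of MAPKAPK2 at chr1:206684944-206734283, and whether position bears on its change was not tested. PXDN, which crosslinks collagen IV, was higher in the knockout, at 32.7 ± 2.39 against 16.3 ± 0.667 CPM, a change of 1.01 (SE 0.10, adjusted p = 1.16e-05). NID2, a relative of NID1, was low, at 1.20 ± 0.184 CPM in wild-type and 0.261 ± 0.0929 CPM in knockout DMSO, a change of -2.19 (SE 0.40, adjusted p = 0.0029).

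Other matrix ligands of integrins moved in both directions. Of 18 tested, 9 rose and 6 fell with JQ1 in wild-type cells and 8 rose and 6 fell in the knockout, with medians of 0.38 and 0.30. TNC, tenascin C, a ligand of ITGA9 and ITGAV receptors, averaged 1181 ± 18.6 CPM in wild-type DMSO and 2973 ± 147 CPM in wild-type JQ1, a rise of 1.33 (SE 0.07, adjusted p = 5.09e-09). THBS1, thrombospondin, rose by 0.87 (SE 0.05, adjusted p = 1.99e-08). FN1, fibronectin, the ligand of ITGA5, fell, at -1.26 (SE 0.08, adjusted p = 4.19e-08).

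Between genotypes 2 ligands were higher and 4 lower in DMSO, and 2 higher and 5 lower in JQ1. TGFBI, a matrix protein bound by ITGAV and ITGA3 receptors, was at 55.8 ± 2.80 CPM in wild-type and 12.4 ± 1.24 CPM in knockout DMSO, a change of -2.17 (SE 0.09, adjusted p = 1.82e-09). In this list 2 genes had JQ1 responses that differed between genotypes, ICAM1 at -0.93 (SE 0.13, adjusted p = 0.0149) and TGFBI at -0.81 (SE 0.13, adjusted p = 0.0208). ICAM1, the ligand of leukocyte integrins, averaged 54.4 ± 1.22 and 23.5 ± 2.15 CPM in wild-type DMSO and JQ1, and 37.7 ± 2.91 and 8.50 ± 1.12 CPM in the knockout.

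Of 26 tested integrin activators and adaptors, 12 rose and 5 fell with JQ1 in wild-type and 10 rose and 5 fell in knockout cells, with medians of 0.17 and 0.15. PXN, the focal adhesion scaffold paxillin, rose by 0.88 (SE 0.08, adjusted p = 1.77e-06) in wild-type cells, and CIB1, which binds integrin tails, by 0.84 (SE 0.07, adjusted p = 6.18e-07). FERMT1, a kindlin, fell, at -0.87 (SE 0.08, adjusted p = 1.28e-06) in the knockout. Between genotypes 2 were higher and 2 lower in DMSO, 1 higher and 4 lower in JQ1. ILK, integrin-linked kinase, was higher in the knockout by 0.74 (SE 0.06, adjusted p = 3.75e-06) in DMSO.

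Of 22 tested genes of focal adhesion signalling, 10 rose and 6 fell in wild-type and 9 rose and 6 fell in knockout cells, with medians of 0.15 and 0.12. The kinase SRC fell, at -0.77 (SE 0.10, adjusted p = 4.39e-05) and the caveolar protein CAV1 at -0.71 (SE 0.06, adjusted p = 7.90e-07) in wild-type cells. Between genotypes 2 were lower in DMSO and 5 in JQ1, and none was higher. In either direction 7.91% and 8.57% of all genes passed. CAV1 was among them, at -0.41 (SE 0.06, adjusted p = 0.000606) in DMSO.

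Of 15 tested laminin receptors outside the integrins and tetraspanins that bind integrins, 7 rose and 2 fell in wild-type and 8 rose and 2 fell in knockout cells, with medians of 0.31 and 0.38. CD151, the tetraspanin that associates with laminin-binding integrins, averaged 117 ± 2.41 CPM in wild-type DMSO and 220.2 ± 17.1 CPM in wild-type JQ1, a rise of 0.92 (SE 0.08, adjusted p = 7.09e-07). BCAM, a receptor for LAMA5 laminins, fell, at -1.31 (SE 0.14, adjusted p = 4.85e-06). Between genotypes 1 was higher and 4 lower in DMSO, 1 higher and 3 lower in JQ1. SDC3, a syndecan, was lower in the knockout, at -0.83 (SE 0.10, adjusted p = 0.000127) in DMSO.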

How the data were processed

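One deposited table holds estimated counts per gene symbol, which need not be whole. A second table, also deposited, gives normalized signal values of 32828 genes. Each signal value equals the rounded count over a factor that varies by gene and by library. Per the submitters' processing notes, Trim Galore, cutadapt, FastQC, MultiQC, kallisto, DESeq2 and GRCh38.p10 were used, with no role given. Annotation and strand use are not given in the sources used here. Per the labels' protocols, libraries were directional.

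For this work counts were rounded, and edgeR's filterByExpr left 21698 genes. Libraries were scaled by TMM (factors 0.926 to 1.06). All 12 libraries entered 1 quasi-likelihood fit with a term per group (edgeR 4.0.16, limma 3.58.1, R 4.3.3), with Benjamini-Hochberg adjustment over all tested genes at 0.05, for 5 contrasts. SE is the absolute log2 fold change over the square root of F. The relative factor between the tables was tested with limma in genes of at least 10 counts in every library. DESeq2 (1.42.0) was an alternative. Scripts were tested on simulated data.

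Members and lists were chosen with earlier results of these data known. Members past the threshold with at least 5 CPM in a group are given by library, other members by level and count; from each list up to 4 genes per contrast with the smallest adjusted p could be named. Gene positions and lengths came from GENCODE release 29 (GRCh38), matched by symbol.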

Additional observations from a re-analysis of the deposited data

Results flagged for a closer look

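LAMA4 and LAMB1 differed in sign between the JQ1 responses of the 2 genotypes, though the wild-type value of LAMB1, 0.07 (SE 0.05, adjusted p = 0.304), did not pass. For each gene all 3 wild-type JQ1 libraries lay above all wild-type DMSO libraries and all 3 knockout JQ1 libraries lay below all knockout DMSO libraries. Both genes were picked out by this pattern, so it is no separate support, and its share over all genes was not computed. The knockout response minus the wild-type response was -0.357 on the log2 scale for LAMA4 and -0.246 for LAMB1. The test of the difference gave an adjusted p of 0.0868 for LAMA4 and 0.249 for LAMB1 by edgeR's quasi-likelihood test, and DESeq2 gave 0.000295 and 0.0121.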

How the results depend on the processing

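Leaving out 1 library at a time gave 18 to 23 calls among the members for JQ1 in wild-type cells, 21 to 24 for JQ1 in the knockout, 4 to 11 for the knockout in DMSO, 4 to 8 for the knockout in JQ1, 0 to 1 for the difference of the responses and 0 to 14 for transcript length. The knockout in DMSO gave 5 calls without wild-type DMSO replicate 1, 5 without replicate 2 and 6 without replicate 3, and 5 without knockout DMSO replicate 1 and 4 without replicate 3. At an adjusted p under 0.01 it gave 4. The 14 transcript length calls came without knockout JQ1 replicate 1, the largest a JQ1 difference of ITGA9 of -16.8%. Apart from ITGA9, LAMA4 and ITGA6 they were at -0.553% to -0.767%. One call came without replicate 3, also ITGA9 (-14.3%, adjusted p = 0.0346 by limma). The difference of the responses gave 1 call by edgeR with no filter on low counts (LAMA4, adjusted p = 0.0352). It gave 1 without knockout JQ1 replicate 3 (LAMA4, 0.0365) and 3 with DESeq2. Shares of all genes called in these settings are not given here. The cause was not tested.

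Over the alternatives, calls of single members were lost in 16 of 420 values for JQ1 in wild-type cells, 15 of 461 for JQ1 in the knockout, 47 of 208 for the knockout in DMSO and 10 of 125 for the knockout in JQ1, and none changed sign. Calls held under every alternative run for 14 of 20, 19 of 22, 4 of 10 and 4 of 6 members, in that order. Replicate numbers showed no clear pairing: between same-numbered libraries, deviations of genes from their group means correlated at -0.115 to 0.0786. For JQ1 in the knockout, the same number gave 0.0786 for replicate 1 and 0.0604 for replicate 3. The highest value with another number was 0.0689 and -0.0253. Correlations this weak do not settle whether samples were paired. With the replicate block the members called were 20, 22, 7 and 6 in the 4 comparisons, 0 for the difference and 0 for transcript length. Members near 1 CPM or below, such as LAMA1, LAMC3, ITGAX and ITGB2, are limited by their counts.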
